A study of Drosophila melanogaster with 24 samples.

Results

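The genes described here are 31 genes of ecdysone and juvenile hormone synthesis, turnover, reception and early response in Drosophila melanogaster. They were chosen by name, with earlier results of these data known, out of 13922 protein-coding genes on the major chromosomes. They were examined for peaks of the clock activators CLK (CLOCK) and CYC (CYCLE), which act together as a bHLH-PAS dimer, in heads, testes and ovaries. The series asked where the clock activators sit on chromatin in the reproductive system. The 24 libraries came from chromatin immunoprecipitation and sequencing (ChIP-seq) and fell into 12 groups of 2. For CLK and for CYC, in each of the 3 tissues, the groups were the DNA recovered with an anti-GFP antibody and its input. Each biological replicate held 200 heads or 200 pairs of gonads, all collected at zeitgeber time 10 h, counted from lights on. The genotypes, the tagged alleles and their drivers, the age of the flies and the sex behind the head samples are not stated in the labels. The data were 6 lists of peaks, with 1 list per protein and tissue.

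Ecdysone is made from dietary sterol by a chain of enzymes of the Halloween genes and is turned into its active form, 20-hydroxyecdysone, in target tissues. The active steroid binds the nuclear receptor EcR with its partner Ultraspiracle, and the pair switches on a first wave of transcription factors that in turn set off later waves. Juvenile hormone, a sesquiterpenoid of the corpora allata, acts through Met and gce, which are bHLH-PAS proteins as CLK and CYC are. In the mosquito Aedes aegypti, Met is known to pair with CYC. In the adult fly both hormones govern egg production, and the ecdysone response factor Eip75B is known as a regulator of the clock in brain neurons.

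For CLK the lists held 1016 peaks from head, 2491 from testis and 351 from ovary, and for CYC 394, 1583 and 1975. As a yardstick, the clock gene vri had 6 CLK peaks in head, all of which met a CYC peak, and the widest of them spanned 2020 bp. That peak was the widest of the CLK head list. At the clock gene per, 2 of 3 CLK head peaks met a CYC peak. vri had no peak in testis or ovary, so it is a yardstick for head only. Read depth is unknown, each list stands for its protein and tissue as a whole, and no value of a replicate was used here. Differences between tissues could therefore not be tested against replicate error, and the results are counts, positions and shares. Whole tissue was used, so the cells that carry a peak cannot be told from the lists.

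A peak was placed by its midpoint. It was counted at a gene end when the midpoint lay within 1 kb of either end of the gene, and in the body when it lay inside the gene farther from both ends. The annotation gave no strand, so a start and a 3' end are both called an end. By this rule 38 peaks lay at 17 of the 31 genes, of which 11 were at ends, spread over 8 genes, and 27 were in bodies. The other 14 genes had no peak in any list. Over all protein-coding genes, 38.9% had a peak in at least 1 list and 29.9% had one at an end.

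Gene length goes with these counts. The hormone genes had a median length of 21.1 kb, against 2.16 kb for all protein-coding genes, and 16 of them were 20 kb or longer. Of these 16 genes 12 had a peak, which is near the 71.6% of all genes of that length. Of the 15 shorter members 5 had a peak, beside 36.4% of all genes under 20 kb. E23, at 20.0 kb when rounded, was counted with the shorter ones.

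**Figure D1:**
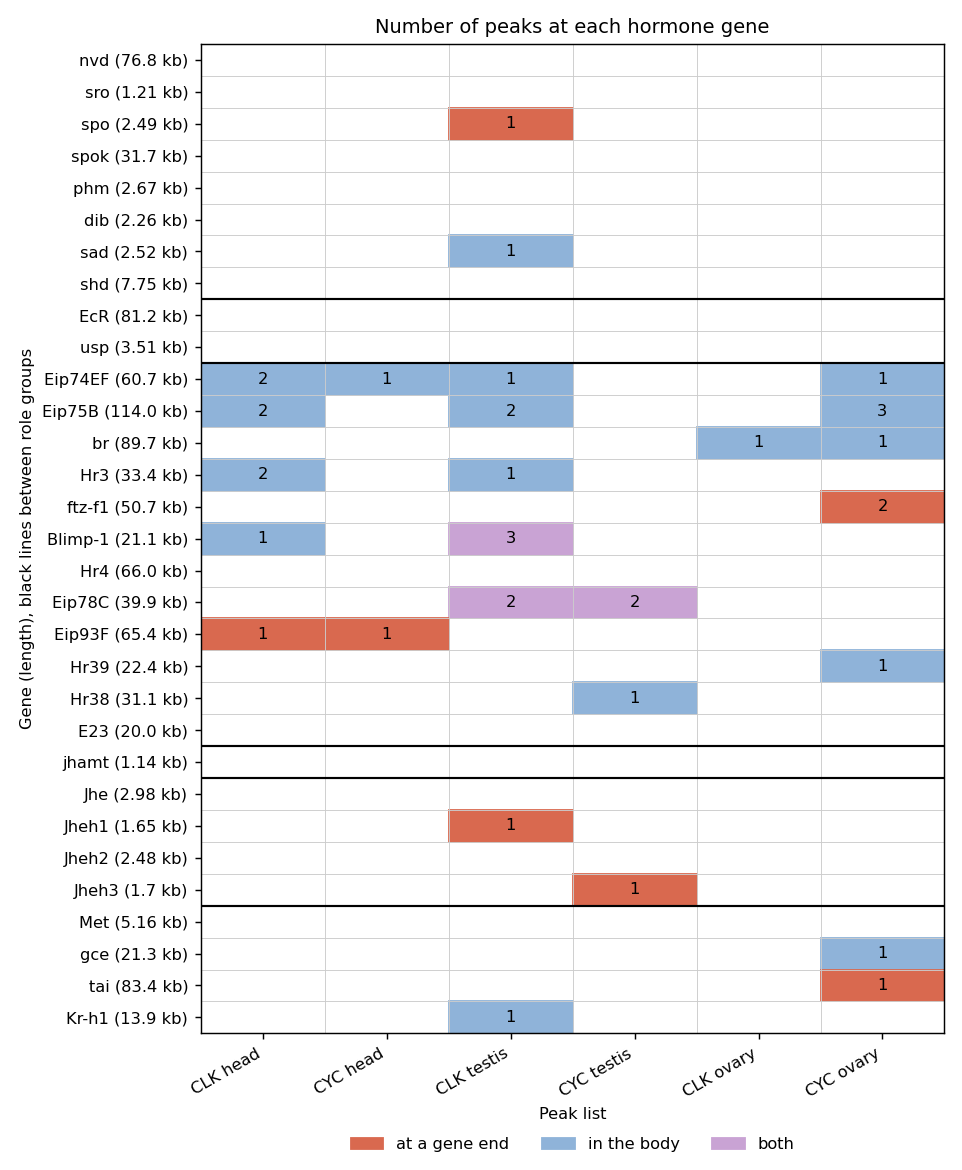
Number of peaks at each of the 31 hormone genes (rows, with gene length) in each of the 6 lists (columns); red cells hold peaks within 1 kb of a gene end, blue cells peaks in the body and purple cells both kinds. The ecdysone response genes carried 31 of the 38 peaks, and the rows of EcR, usp, Met and jhamt are empty.

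Of the 8 genes of ecdysone synthesis 2 had a peak, spo and sad, each with 1 of CLK in testis. Both are among the 6 of these genes under 20 kb, a class in which 36.4% of all genes had a peak in at least 1 list. At spo, which encodes the cytochrome P450 Spook of the early, poorly understood steps known as the black box, the CLK testis peak spanned 3L 5592782 to 5593074 (292 bp). Its midpoint lay 357 bp outside spo and 187 bp inside the neighbour Alp10, an alkaline phosphatase gene, whose end was the nearer. At sad, which encodes the P450 Shadow that hydroxylates carbon 2, the CLK testis peak (3R 11878127 to 11878414, 287 bp) lay 1036 bp from the nearest end. It was thus just outside the 1 kb limit and counted in the body, in a gene of 2.52 kb. No list had a peak at nvd, sro, spok, phm, dib or shd, whose products carry out the first, the black box and the later hydroxylation steps. Of these, nvd (76.8 kb) and spok (31.7 kb) are long genes.

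Neither gene of the ecdysone receptor had a peak. EcR, of 81.2 kb, and usp, of 3.51 kb, had none of either protein in any tissue. A peak in at least 1 list was found at 71.6% of all genes of 20 kb or longer and at 36.4% of shorter ones. The peak nearest to EcR was a CYC ovary peak 6.67 kb outside it, and the peak nearest to usp was a CYC head peak 28.3 kb outside it.

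Among the 12 ecdysone response genes 10 held peaks, beside 71.6% of all genes of 20 kb or longer, and Hr4 and E23 held none. Hr4 encodes a nuclear receptor and E23 an ABC transporter of the early response. Apart from E23, which is just under 20 kb, these are long genes, and the median of the 12 is 45.3 kb. The group carried 4.86 peaks per 100 kb over the 6 lists, with 1 kb added on either side of each gene. All genes of 20 kb or longer carried 3.52, and the gap was not tested. Per list, 5 of the 12 had a CLK peak in head, 2 a CYC peak in head, 5 a CLK peak in testis, 2 a CYC peak in testis, 1 a CLK peak in ovary and 5 a CYC peak in ovary. The share of all genes of 20 kb or longer with such a peak was 27.4%, 9.49%, 32.0%, 23.1%, 8.89% and 33.4% in that order.

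Eip93F was the one hormone gene at which peaks of different lists met. It encodes E93, the factor that directs adult metamorphosis and the stage-specific response to ecdysone. The CLK head peak lay at 3R 21948795 to 21949022 (227 bp) and the CYC head peak at 3R 21948764 to 21949226 (462 bp), so the CLK peak lay wholly within the CYC peak. Their midpoints were 86 bp apart, at 206 and 119 bp outside the end of Eip93F with the lower coordinate, and no other annotated gene was within 1 kb. The CYC peak ranked 50 by width among the 394 CYC head peaks, while the CLK peak ranked 809 of 1016. The rest of the 65.4 kb gene held no peak of any list. The overlap is lost when each peak must cover 50% of the other, since the CYC peak is the wider.

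**Figure D2:**
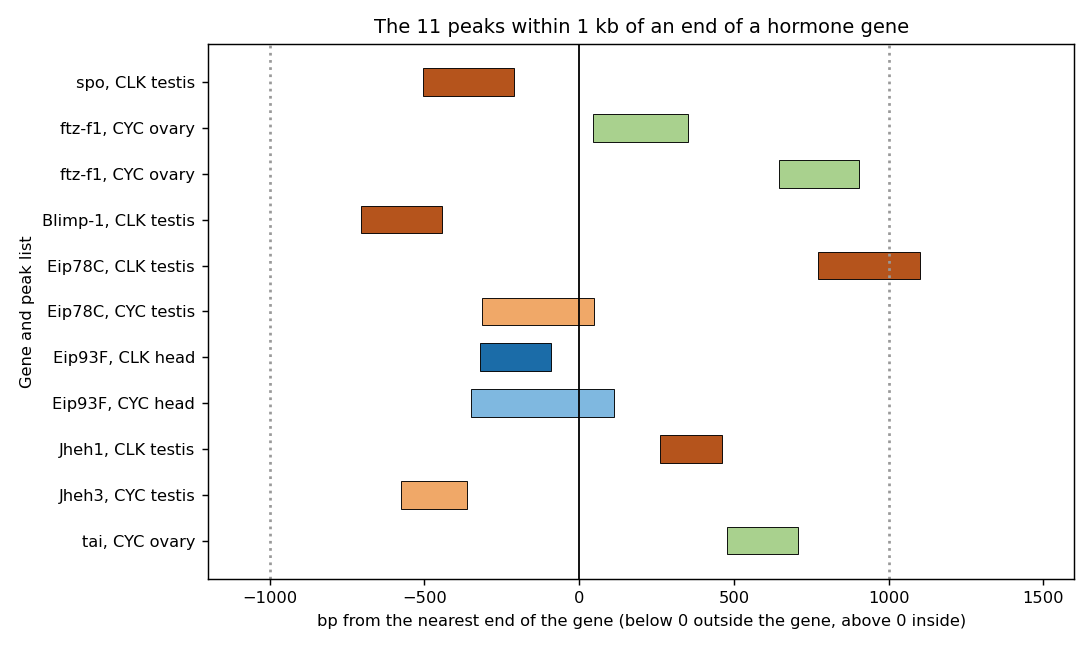
The 11 peaks within 1 kb of an end of a hormone gene, each drawn as a bar over its span in bp from that end (solid line at 0, outside the gene to the left, inside to the right; dotted lines at 1 kb either way). The head peaks of CLK and CYC at Eip93F overlap, whereas the testis peaks of CLK and CYC at Eip78C lie side by side.

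Eip78C, a nuclear receptor gene of 39.9 kb with a known part in early oogenesis, was the 1 hormone gene with peaks of both proteins in testis. Such peaks of both were found at 3.68% of all genes and at 12.2% of those of 20 kb or longer. A CYC peak lay across its end with the lower coordinate (3L 21226296 to 21226658, 362 bp), followed by a CLK peak (3L 21227379 to 21227711, 332 bp) and a further CYC peak (3L 21228419 to 21228759, 340 bp). The gaps between these neighbours were 721 and 708 bp, so the peaks did not meet. With its midpoint 936 bp inside the gene, the CLK peak was the one closest to the 1 kb limit from within. A further CLK testis peak lay at 3L 21257944 to 21258151, 28 bp from an end of CG43218, a gene that lies at that site within Eip78C.

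Eip74EF and Eip75B had peaks in the most lists, 4 and 3, all of them in the gene bodies. Of all genes of 20 kb or longer, 17.0% had peaks in 3 or more lists, so 2 of 16 hormone genes of that length is near the background. Eip74EF encodes an ETS-domain factor and Eip75B a nuclear receptor that binds heme, both of the first wave. In Eip74EF (3L 17558672 to 17619325) CLK of head was at 17566483 to 17566820 and 17616782 to 17617121, CYC of head at 17573834 to 17574056, CLK of testis at 17578892 to 17579211 and CYC of ovary at 17563904 to 17564155. These 5 peaks were 222 to 339 bp wide, and none met another. The closest of them were CLK of head and CYC of ovary, with midpoints 2.62 kb apart, while CLK and CYC of head were 7.29 kb apart.

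Eip75B, at 114 kb the longest of the hormone genes, had 7 peaks. CLK of head was at 3L 17971221 to 17971420 and 18044412 to 18044747, and CLK of testis at 17981520 to 17981753 and 18004519 to 18004725. CYC of ovary was at 18036739 to 18037191, 18054326 to 18056695 and 18060288 to 18060815, at 75.6, 91.9 and 96.4% of the length of the gene from its end with the lower coordinate. The middle one of these CYC peaks, 2369 bp wide, was the widest of all 38 and ranked 74 among 1975 CYC ovary peaks. The second CLK head peak also lay 366 bp from an end of CG42393, a gene within the span of Eip75B. No CYC peak of head or testis was within the gene, the nearest being 49.7 kb and 125 kb outside it.

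CLK peaks of head and of testis fell in the same 4 hormone genes, Eip74EF, Eip75B, Hr3 and Blimp-1, but at different places. These were 4 of the 5 genes with a CLK head peak and 4 of the 9 with a CLK testis peak. All 4 are among the 16 members of 20 kb or longer, of which 5 had a CLK head peak and 5 a CLK testis peak. Of all 1012 genes of that length, 277 had a CLK head peak, 324 a CLK testis peak and 117 (11.6%) both. Hr3 encodes a nuclear receptor homologous to the mammalian ROR receptors, and Blimp-1 a zinc finger repressor that times ftz-f1. In Hr3 the CLK head peaks (2R 10225218 to 10225544 and 10234735 to 10234989) lay on either side of the CLK testis peak (2R 10229455 to 10229716), with the closest midpoints 4.20 kb apart. CG12912, annotated within Hr3, held the testis peak and the first head peak as well, and the second head peak lay 255 bp past its end. In Blimp-1 the CLK head peak was at 3L 5634311 to 5634518, and the 3 CLK testis peaks were at 5637888 to 5638142, 5646263 to 5646853 and 5652539 to 5652798. The last of these lay 574 bp outside an end, and the middle one, of 590 bp, ranked 114 by width among 2491. The closest head and testis midpoints were 3.60 kb apart in Blimp-1, 10.3 kb in Eip75B and 12.4 kb in Eip74EF.

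**Figure D3:**
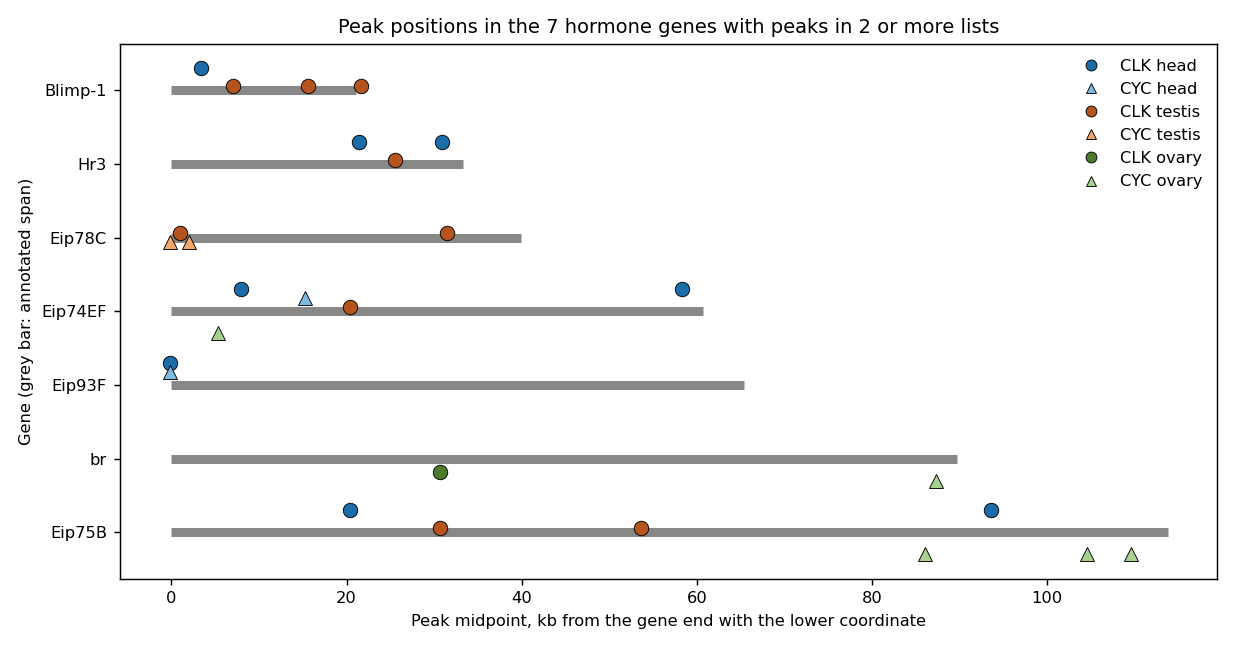
Midpoints of peaks along the 7 hormone genes with peaks in 2 or more lists, in kb from the gene end with the lower coordinate; grey bars are annotated spans, circles CLK and triangles CYC, and each colour is a tissue. Peaks of different lists sit kilobases apart in Eip74EF, Eip75B, Hr3, Blimp-1 and br, and coincide at the end of Eip93F.

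The remaining response genes had peaks of 1 tissue. At ftz-f1, a nuclear receptor gene that gives competence for later ecdysone pulses, CYC of ovary had a pair of peaks at an end, 3L 18750652 to 18750959 (307 bp) and 3L 18751254 to 18751512 (258 bp). Their midpoints were 198 and 776 bp inside the gene, within 1 kb of an end of Atg3, an autophagy gene, too, but nearer to ftz-f1. The broad gene br, on the X, encodes a family of BTB zinc finger factors. It had a CLK ovary peak (X 1605669 to 1606003, 334 bp), the one CLK ovary peak at any hormone gene, and a CYC ovary peak 56.6 kb away (X 1662217 to 1662586, 369 bp). Both fell within Mur2B as well, a mucin gene whose annotated span covers these sites. Hr39, a nuclear receptor gene with a known part in glands of the female tract, had a CYC ovary peak (2L 21258439 to 21258663) that lay 1124 bp from an end. Hr38, the NR4A homologue that answers to neuronal activity, had a CYC testis peak in its body (2L 20709495 to 20709699, 204 bp).

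Of the 9 juvenile hormone genes 5 had a peak, 1 each, beside 38.9% of all genes. These 5 peaks were 199 to 285 bp wide and came from testis and ovary. In head 0 of the 9 had a peak of either protein, beside 11.8% of all genes. Neither jhamt, the methyltransferase that makes the active hormone, nor Jhe, the esterase, had a peak in any list. The epoxide hydrolase genes Jheh1, Jheh2 and Jheh3 lie in a row on 2R. CLK of testis had a peak within Jheh1 (2R 18853696 to 18853895, 199 bp), 362 bp from an end and also within reach of CG18190. CYC of testis had one 468 bp outside Jheh3 (2R 18859801 to 18860014, 213 bp), between Jheh2 and Jheh3. The proteins were 6.11 kb apart there, and Jheh2 itself had no peak. At 199 bp the Jheh1 peak had the lowest width found in any list, as did the first CLK head peak in Eip75B.

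Of the juvenile hormone receptors, gce had a CYC ovary peak (X 15317847 to 15318132, 285 bp) 1084 bp from an end and so in the body, and Met had none. The peak nearest to Met was a CYC head peak 60.6 kb outside it. tai, which encodes the bHLH-PAS coactivator Taiman that serves both hormone pathways, had a CYC ovary peak 592 bp inside one end of its 83.4 kb (2L 9249504 to 9249734, 230 bp). That peak was nearer to an end of aust, at 429 bp. Kr-h1, the zinc finger gene that reports juvenile hormone action, had a CLK testis peak in its body (2L 6091712 to 6091925, 213 bp), 406 bp from an end of CG45075.

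By list, the count of hormone genes with a peak at an end stayed close to that of all protein-coding genes. It was 1 of 31 for CLK of head, against 7.02% of all genes, and 1 for CYC of head, against 3.38%. In testis it was 4 for CLK (11.7% of all genes) and 2 for CYC (6.32%). In ovary it was 0 for CLK (0.876%) and 2 for CYC (7.69%). A share of 1 in 31 is 3.23% and of 4 in 31 is 12.9%, so 1 gene more or less moves the share by more than most of these gaps. Of the 16 long members, those with a peak at an end were 1 for CLK of head (12.5% of all long genes), 1 for CYC of head (4.74%), 2 for CLK of testis (5.24%), 1 for CYC of testis (3.66%), 0 for CLK of ovary (1.28%) and 2 for CYC of ovary (10.9%).

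With peaks in bodies included, 5 of the 31 had a CLK peak in head, beside 9.07% of all genes, and 2 a CYC peak in head (4.13%). In testis 9 had a CLK peak (17.8%) and 3 a CYC peak (10.1%). In ovary 1 had a CLK peak (1.73%) and 7 a CYC peak (11.1%). Of the 15 members under 20 kb, 4 had a CLK peak and 1 a CYC peak in testis, beside 16.7% and 9.13% of all genes under 20 kb. The counts were 0 in the head lists, beside 7.64% for CLK and 3.71% for CYC, and 0 in the ovary lists, beside 1.17% and 9.4%. For the 16 long members the counts were 5, 2, 5, 2, 1 and 7 in the order CLK head, CYC head, CLK testis, CYC testis, CLK ovary and CYC ovary. For CYC of ovary this is 43.8% of the long members, beside 33.4% of all long genes. For CYC of testis it is 12.5%, beside 23.1%.

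**Figure D4:**
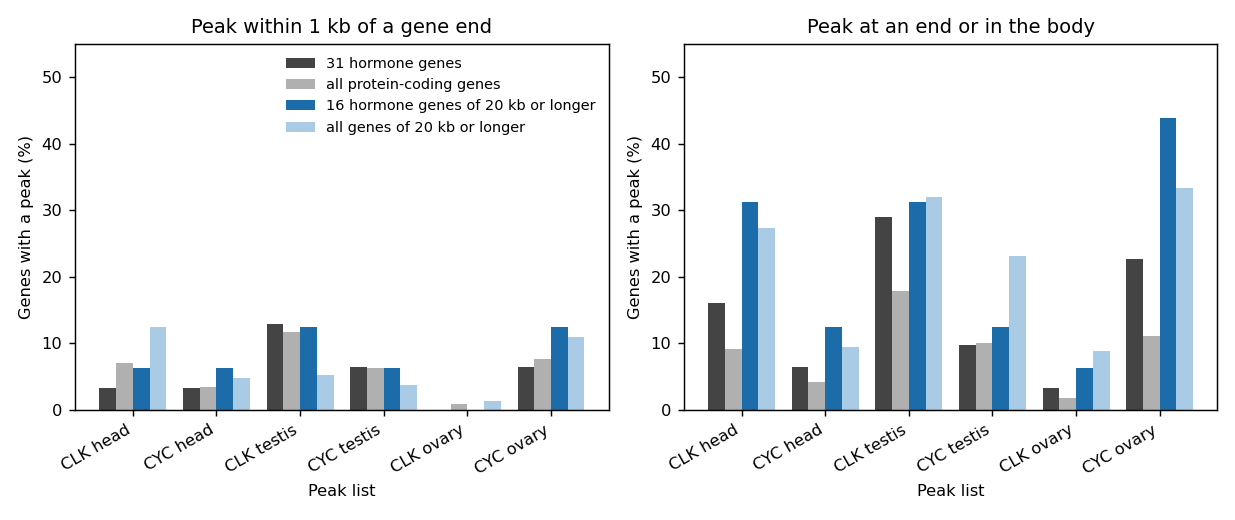
Percent of genes with a peak in each list, at a gene end on the left and at an end or in the body on the right, for the 31 hormone genes, all 13922 protein-coding genes, the 16 hormone genes of 20 kb or longer and all genes of that length. On the right, the hormone genes stand at 16.1% against 9.07% of all genes for CLK of head and at 22.6% against 11.1% for CYC of ovary, and among genes of 20 kb or longer these become 31.2% against 27.4% and 43.8% against 33.4%.

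Counted per length, the long members had 0.869 CLK peaks per 100 kb in head, where all genes of 20 kb or longer had 0.641. The values for CYC of head were 0.217 and 0.209. In testis they were 0.978 and 0.912 for CLK and 0.326 and 0.581 for CYC. In ovary they were 0.109 and 0.223 for CLK and 1.09 and 0.956 for CYC. These densities rest on 8, 2, 9, 3, 1 and 10 peaks at members.

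Of the 38 peaks at hormone genes 27 lay in gene bodies. In head 1 of 8 CLK peaks lay at an end (12.5%, 95% exact Clopper-Pearson interval 0.316 to 52.7%, for counting error only), where 68.3% of all CLK head peaks in or within 1 kb of genes did. Among CLK head peaks at genes of 20 kb or longer the share was 36.7%. In testis 4 of 13 CLK peaks lay at an end (30.8%, 9.09 to 61.4%), beside 54.4% at all genes and 11.7% at long genes. In ovary 3 of 10 CYC peaks did (30%, 6.67 to 65.2%), beside 53.4% and 22.7%. The intervals take peaks as independent, although the 8, 13 and 10 peaks came from 5, 9 and 7 genes, and they are not tests. At an end were also 1 of 2 CYC peaks in head (50%, beside 73.4% and 40.9%), 2 of 4 CYC peaks in testis (50%, beside 52.1% and 12.3%) and 0 of 1 CLK peak in ovary (beside 42.4% and 13.6%). The body peaks lay 1.04 to 53.7 kb from the nearest end of their gene, with a median of 7.03 kb.

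Peaks of CLK and CYC met at 1 hormone gene. In head 1 of 8 CLK peaks met a CYC peak, at Eip93F, beside 11.3% of all CLK head peaks in or within 1 kb of genes. In testis 0 of 13 met one (95% exact Clopper-Pearson interval 0 to 24.7%, with peaks taken as independent), beside 6.78%. The single CLK ovary peak met none. Counting every pair of lists, 2 of the 38 peaks met a peak of another list (5.26%), namely the Eip93F pair, where 16.7% of all peaks at protein-coding genes did. That share is not split by gene length or by end and body, so the gap is not read as a result about these genes.

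The peaks at hormone genes were of ordinary width. Of the 38, 21 were no wider than the median of their list and 2 reached its 90th percentile, the CYC ovary peak of 2369 bp in Eip75B and the CLK testis peak of 590 bp in Blimp-1. In head the widest was the CYC peak at Eip93F, at 462 bp, where tim reached 805 bp and vri 2657 bp for CYC.

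**Figure D5:**
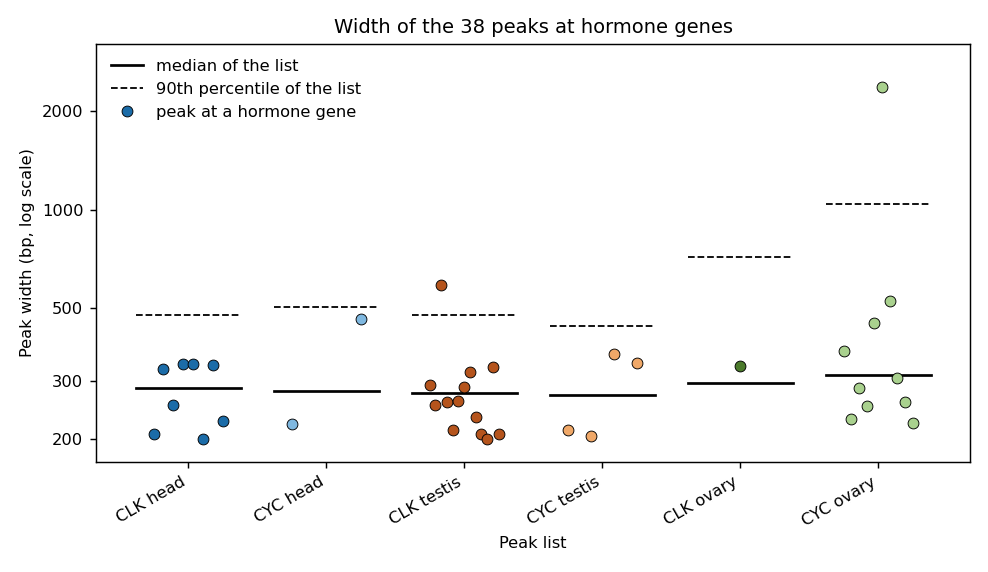
Width in bp, on a log scale, of each of the 38 peaks at hormone genes, by list, with the median (solid line) and 90th percentile (dashed line) of all peaks of that list. Points lie around the medians, apart from the CYC ovary peak of 2369 bp in Eip75B and the CLK testis peak of 590 bp in Blimp-1.

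By chromosome, 23 of the 38 peaks lay on 3L, which holds 9 of the 31 genes. Of these peaks, 7 were in Eip75B (114 kb) and 5 in Eip74EF (60.7 kb). The share of all peaks on 3L was not set beside this count, so it is not read as a result about 3L. The 6 genes on the X had 3 peaks, all of ovary, in br and gce. The X held 1.36% of all CLK testis peaks and 3.54% of all CYC testis peaks, but 30.5% and 20.6% of those of ovary, so usp, Met, gce, phm, br and Hr4, none of which had a testis peak, lie on a chromosome that the testis lists as a whole seldom hold. The part of the chromosome in this result was not tested.

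A wider list of 75 genes around the same pathways, set up by name, held 23 with a peak at an end in at least 1 list, beside 29.9% of all genes. It also took in further nuclear receptor genes, such as tll, knrl and svp, as members of that family. Another entry, pgc, is not known to act in juvenile hormone supply and had no peak. In head 13 of the 75 had a CLK peak at an end (17.3%, beside 7.02% of all genes) and 6 a CYC peak (8.00%, beside 3.38%). In testis 5 had a CLK peak (6.67%, beside 11.7%) and 1 a CYC peak (1.33%, beside 6.32%). In ovary 0 had a CLK peak (beside 0.876%) and 3 a CYC peak (4.00%, beside 7.69%). Head peaks of both proteins were at ends of bon, Fkbp39, Hmgs and kni. bon encodes a TIF1-family cofactor of nuclear receptors, and kni a nuclear-receptor-like factor with a known part in ecdysone synthesis. At bon the CLK peak (3R 20593257 to 20593531) met the CYC peak (3R 20593278 to 20593585), and at kni the CLK peak (3L 20695445 to 20695736) met the CYC peak (3L 20695452 to 20695702). At Hmgs, the HMG-CoA synthase gene of the mevalonate pathway, and at Fkbp39, whose product binds a juvenile hormone response element, the peaks of the proteins did not meet.

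The other named genes of that wider list had end peaks of 1 protein. Ldh, known as the ecdysone-inducible ImpL3, had CLK peaks near one end, in head (3L 6262385 to 6262640) and in testis (3L 6263111 to 6263350). CLK of head had a peak of 627 bp at an end of mld, a zinc finger gene needed for ecdysone synthesis, and one of 342 bp at knrl. CYC of head had a peak of 574 bp at Hr96, a nuclear receptor gene of sterol and xenobiotic metabolism. CLK of testis had peaks at ends of tll (454 bp) and Cyp6g2 (334 bp), and CYC of ovary at ends of kay (414 bp) and Yp3 (296 bp), a yolk protein gene.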

How the data were processed

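Per the labels' protocols, sheared chromatin was precipitated with anti-GFP and part of it was kept as input. Per the submitters' processing notes, MACS2, fastp, Bowtie2, SAMtools, Picard, deepTools and ChIPseeker were used, with build dm6. No version, setting, peak threshold or way of combining replicates is stated there. The deposited lists gave chromosome, start and end (3 columns) without a score. Starts may count from 0 or 1, and positions are printed as deposited. Lists were matched to tissues by the initials in their names.

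Genes came from the RefSeq table of Release 6 plus ISO1 MT, the assembly that dm6 names. Of the 31 members, 30 matched by symbol and phm by its locus tag (phtm in the table). Of 80 symbols in the wider list 75 gave a gene, 8 by synonym. Members and lists were chosen with earlier results of these data known, so no test was run on them. A peak counted for every gene within reach. Members with an end peak or with peaks in 3 or more lists were to be described one by one, and the other members with a peak were added. Of the wider list up to 12 genes with an end peak were named, by number of lists and then width. The planned E-box search was not run. Counting was tested on simulated data. Python 3.11.15, pandas 2.3.3 and scipy 1.17.1 were used. Alternatives covered window, placement, assignment, overlap and width; those for the wider list were chosen after seeing the data.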

Additional observations from a re-analysis of the deposited data

How the results depend on the processing

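Of 92 alternative values 63 stayed close to the reported one (counts within 1.5 times, shares within the interval) and 29 moved. Counts of 0 could not rise at a stricter setting, and the intervals were wide, such as 1.26 to 98.7% for CYC of head. The number that stayed close is therefore not read as a measure of stability. With a window of 3 kb, members with a peak at an end rose to 7 for CLK head, 3 for CYC head, 7 for CLK testis and 7 for CYC ovary, while the share of all genes rose to 12.3%, 6.01%, 27.1% and 15.5%. Members with any peak rose to 9 for CLK head and 4 for CYC head (all genes 13.4% and 6.38%). The share of member peaks at ends rose to 58.3% for CLK head and 69.2% for CYC ovary, and the wider list to 46 genes. At the alternative settings, the shares at ends and the wider list have no value over all peaks or genes beside them. Their changes are therefore not read as results about these genes. With 500 bp, members with an end peak fell to 2 for CLK testis and 1 for CYC ovary, as the share of all genes fell to 5.39% and 4.79%. Placement by overlap gave 2 for CLK head and 5 for CYC ovary (all genes 7.48% and 8.53%), and the gene of the nearest end alone gave 1 for CYC ovary (5.25%). In the widest 50% of peaks, members with an end peak were 0 for CLK head, 2 for CLK testis, 1 for CYC testis and 0 for CYC ovary (all genes 3.66%, 6.13%, 3.22% and 3.39%), and members with any peak were 3 for CLK head, 1 for CYC head, 5 for CLK testis, 1 for CYC testis and 2 for CYC ovary (all genes 4.8%, 2.08%, 9.58%, 5.38% and 5.11%). There the share at ends was 0% for CLK head, 100% for CYC head and 0% for CYC ovary, no CLK head peak of a member met a CYC peak (0), and the wider list had 11 genes. With reciprocal overlap of 50% the count of CLK head peaks that met a CYC peak was 0. A wider window takes in more peaks, and a stricter list fewer, by construction, and with counts this small 1 gene can decide them. No paired analysis was possible because there was 1 list per protein and tissue, without values by replicate, and no result came from a test. Leaving out a replicate was not run for the same reason.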

Other observations

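Beyond 1 kb, 44 pairs of a peak and a hormone gene, from 42 distinct peaks, had the midpoint up to 10 kb outside the gene. They include the peaks at Jheh1 and Jheh3 counted above, paired here with neighbouring Jheh genes. No share over all genes was set beside these counts, so they are not read as a result about these genes. In 5 of the pairs the nearest protein-coding end was that of the hormone gene. CLK of head had a peak of 438 bp at 2L 6081265 to 6081703, 1.12 kb outside Kr-h1 and in no other coding gene, and one of 268 bp at 2L 20716138 to 20716406, 1.68 kb outside Hr38. A further CLK head peak of 469 bp lay 5.70 kb outside Hr38 (2L 20720049 to 20720518), nearer to CG9316. CYC of ovary had a peak of 454 bp at 3L 17949597 to 17950051, 1.13 kb outside the end of Eip75B with the lower coordinate, while the 3 CYC ovary peaks inside the gene lay 75.6 to 96.4% of its length from that end. The other 2 lay inside neighbours, a CLK head peak 1.54 kb outside sro (3R 29797231 to 29797450, in Rnb) and a CLK testis peak 2.17 kb outside dib (3L 4066487 to 4066948, in wit).

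Within kay, the fly Fos gene of the wider list, which neighbours sro, 2 of 3 CLK head peaks met CYC head peaks. The first pair was CLK at 3R 29778544 to 29778980 and CYC at 29778595 to 29778904, and the second CLK at 29782363 to 29782562 and CYC at 29782368 to 29782847. They lay 11506 to 12767 bp from the nearest end of kay, and were chosen after seeing their values.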
